A study of Mus musculus with 2 samples.

Results

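The 5 genes described here, Psca, Ly6d, Ly6e, Ly6a and Ly6c1, encode small cell-surface proteins of the Ly6/uPAR family. They were chosen by name, with earlier results of these data known, from the 32285 genes that both deposited matrices list. All 5 were listed. Both groups were prostate tissue of male C57BL6 mice, with no allele or treatment named, and genotypes, ages and numbers of animals are not given in the sources used here. One group was the ventral lobes and the other the proximal and periurethral region, the part of the gland beside the urethra. Each was a single library of cells released with papain and then TrypLE, so differences between them have no replicates behind them and no test was made. Droplet kits also differed, with 10x Genomics 3' chemistry of version 2 in the ventral and version 3 in the proximal library, and region and kit cannot be told apart.

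Ly6/uPAR proteins share a compact fold of finger-like loops held by disulfide bonds, and most are tethered to the outer membrane by a glycosylphosphatidylinositol (GPI) anchor. Psca is prostate stem cell antigen, named for its prostate expression. Ly6a is Sca-1, used in the mouse to enrich blood stem cells and, in prostate, cells of the proximal ducts, and it is also found on endothelium and many fibroblasts. Ly6d marks B-lineage precursors and stratified epithelia. Ly6e is broadly expressed and induced by interferon, and Ly6c1 is one of a pair of near-identical Ly6C genes best known from endothelium, monocytes and T cells.

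The 5 genes lie together on mouse chromosome 15 in the GENCODE M21 annotation of GRCm38, the assembly also called mm10, within 334 kb. Psca (ENSMUSG00000022598) is at chr15:74714839-74717069 on the plus strand and its principal transcript has 3 exons. Ly6d (ENSMUSG00000034634) is at chr15:74762056-74763620 on the minus strand with 3 exons, and Ly6e (ENSMUSG00000022587) is at chr15:74955051-74959905 on the plus strand with 4 exons. Ly6a (ENSMUSG00000075602) is at chr15:74994877-74998031 on the minus strand with 3 exons. Ly6c1 (ENSMUSG00000079018) is at chr15:75044018-75048830 on the minus strand with 4 exons, next to its partner Ly6c2 (ENSMUSG00000022584) at chr15:75108158-75111970 on the same strand.

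Coding sequences of the family differ in how alike they are. Those of Ly6c1 and Ly6c2 were identical at 97.7% of aligned bases, with 9 of 393 bases different, and those of Ly6a and Ly6c1 at 83.7%. The other pairs among the 5 members and Ly6c2, apart from Ly6a and Ly6c2 at 83.5%, lay between 46.7% and 57.7%. The 60-base coding stretch in which Ly6c1 and Ly6c2 differ most, coding bases 6 to 65 of Ly6c1, is shown with the aligned stretch of Ly6a because the counts of the 3 genes are compared below. Capitals mark the bases at which Ly6c1 and Ly6c2 differ from each other, 6 in all, and for Ly6a the 2 bases at which it differs from Ly6c1.
Ly6c1: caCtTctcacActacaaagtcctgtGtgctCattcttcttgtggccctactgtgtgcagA
Ly6c2: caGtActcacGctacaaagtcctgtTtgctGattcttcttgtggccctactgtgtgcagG
Ly6a: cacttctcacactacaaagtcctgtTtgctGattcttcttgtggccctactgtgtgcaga
This stretch is at the start of the coding sequence, whereas the reads of a 3' kit come from near the end of the transcript. In the last 500 bases of the transcripts, 34 of 410 windows of the read length of 91 bases (8.29%) were identical between Ly6c1 and Ly6c2, and none of the 410 windows of Psca, Ly6d, Ly6e or Ly6a was shared with another of the 6 genes. Counts of Ly6c1 and Ly6c2 are therefore uncertain where reads fall in the shared windows.

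The matrices held 49356586 unique molecular identifiers (UMIs, which count captured RNA molecules) in 2221 ventral barcodes and 97817603 in 4344 proximal barcodes, with no barcode in both. After filtering, 1988 ventral and 3705 proximal cells remained, with medians of 25758.5 and 15260 UMIs. Clusters were named from marker genes, none of them a Ly6/uPAR gene, and family genes were left out of the clustering. Named classes held between 5 of 10 of their own markers (ventral T or NK cell-like) and 10 of 10 (endothelial-like) in at least 25% of their cells. A single ventral cluster (69 cells) and 4 proximal clusters (1034 cells, 27.9% of the library) stayed unnamed and are called by number. By detected markers, proximal clusters 1, 4 and 5 matched the proximal luminal class best and cluster 12 the basal class, with 9 markers each. Values of the proximal luminal-like and basal-like classes leave these clusters out. Ventral basal-like cells also held fibroblast markers, at 5350.1 UMIs per 1000000 (CPM). The doublet caller marked 11 of 5704 cells (0.193%), which means that it has not worked and that doublets must be taken as present. Of the ventral cells named as T or NK cell-like, 16 of 27 had more than 5% of their UMIs from the secretory genes Sbp and Spink1, as had 27 of 85 proximal luminal-like cells.

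Levels are given in CPM, the UMIs of a gene per 1000000 UMIs of the class, with exact 95% intervals that cover counting error only, since cells of a library are not replicates. Shares of cells were taken at a common depth of 2000 UMIs drawn per cell, so that 103 proximal and 17 ventral shallower cells were not counted, and co-detection was read at this depth. A level was compared across classes for the same gene and not between genes, as capture differs from gene to gene.

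**Figure D1:**
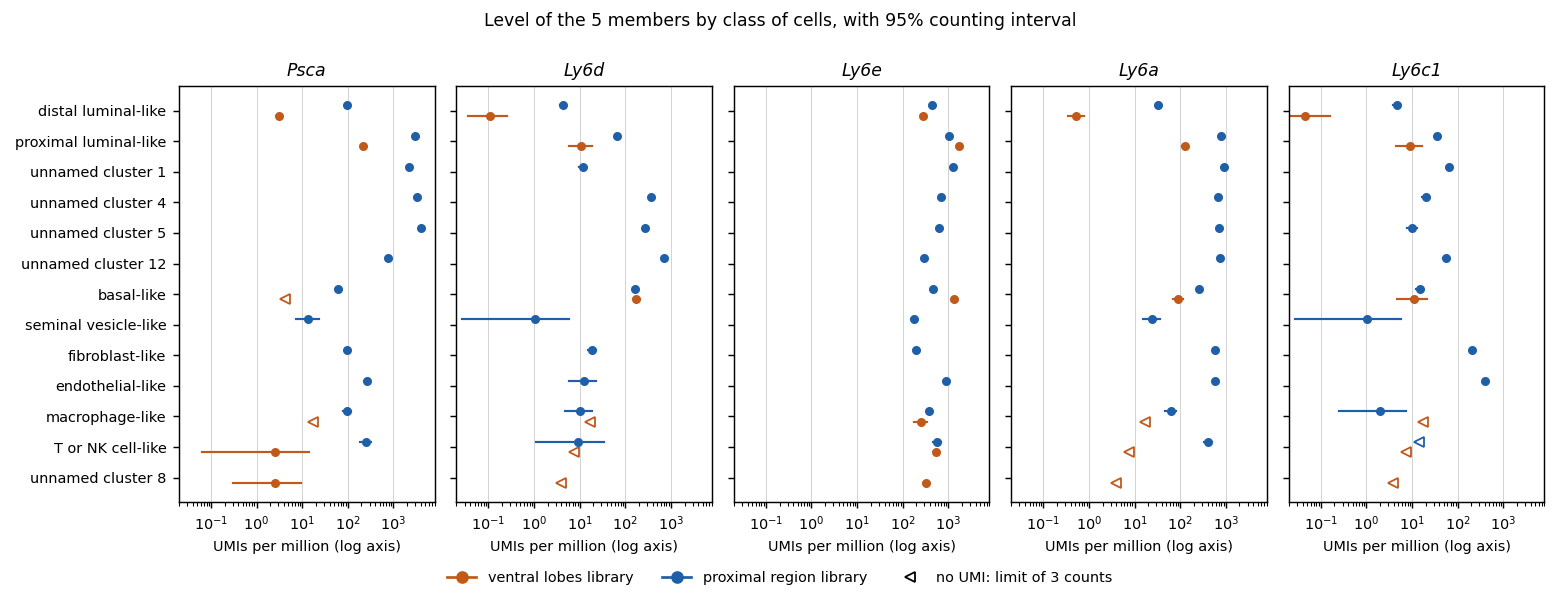
Level of each of the 5 genes in CPM (log axis) in each class of cells, orange for the ventral lobes library and blue for the proximal region library. Bars are exact 95% counting intervals and open triangles are the limits that 3 counts give in classes with no UMI. Psca is at 3978 CPM in proximal cluster 5, 61.5 CPM in proximal basal-like cells and 3.11 CPM in ventral distal luminal-like cells, and Ly6c1 is highest in endothelial-like and fibroblast-like cells.

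Psca, the gene of prostate stem cell antigen, was a gene of the proximal luminal-like cells and of 3 unnamed clusters beside them. Those clusters, 1, 4 and 5, had proximal luminal as their best-matching class. In the proximal library Psca stood at 2911 CPM (2885 to 2936) in the 581 proximal luminal-like cells, whose markers include Krt4. Cluster 5, led by Sbsn, Clca1, Crybg2, Fgfbp1 and Krt6a, held 3978 CPM (3927 to 4029), and cluster 4, led by Clca1, Areg, Krt4, Cxcl17 and Crybg2, held 3238 CPM (3192 to 3284). Cluster 1, led by the globin genes Hbb-bs, Hba-a1 and Hba-a2 with Kcne3 and Aqp5, held 2181 CPM (2152 to 2210). These 4 intervals did not overlap. The proximal luminal-like value pools cluster 0 at 3575 CPM and cluster 2 at 1566 CPM, so its place in this order comes from the pooling. Cluster 12, led by Grp, Ivl, Col17a1, Aqp3 and Krt5, was lower at 756 CPM (730 to 782).

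Single cells showed the same split for Psca. A proximal luminal-like cell held a median of 49 Psca UMIs and at most 903, and 10% of the cells held 234 or more. Medians were 89 in cluster 5, 48 in cluster 4, 39 in cluster 1 and 1 in cluster 12 and in distal luminal-like cells, and 0 in basal-like, fibroblast-like, endothelial-like, macrophage-like and T or NK cell-like cells. The 10% of proximal luminal-like cells with most Psca held 44.1% of the class's Psca UMIs. In cluster 12 that share was 70.1%.

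By share of thinned cells, Psca outside those groups was not separated from background. Macrophage-like cells, which should lack it, held it in 3.95% (0.82% to 11.1%) of thinned cells and in 16.5% unthinned, at a median depth of 11922 UMIs. Distal luminal-like cells (8.52% thinned, 56.1% unthinned, median depth 48910 UMIs), basal-like cells (6.36% and 23.0%, 11166.5 UMIs), fibroblast-like cells (4.78% and 18.7%, 10293 UMIs) and T or NK cell-like cells (7.69% and 33.3%, 7275 UMIs) all fell inside that interval after thinning. Endothelial-like cells were at 15% (7.10% to 26.6%), an interval that overlaps the macrophage-like one. Proximal luminal-like cells held it in 81.3% (77.9% to 84.4%) thinned and 90.4% unthinned. By level, distal luminal-like cells were at 95.4 CPM, fibroblast-like cells at 95.9 CPM, macrophage-like cells at 97.5 CPM and basal-like cells at 61.5 CPM, while the 26 seminal vesicle-like cells were at 13.7 CPM (7.28 to 23.4). The macrophage-like level rests on 1 cell with 43 of 96 UMIs, and without it was 56.5 CPM (42.3 to 73.9), below distal luminal-like cells without their own top cell (81.0 CPM, 78.0 to 84.1).

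Psca in the ventral library kept the luminal difference at lower levels. It was at 221 CPM (195 to 249) in 85 proximal luminal-like cells, whereas 1636 distal luminal-like cells held 3.11 CPM (2.62 to 3.67). No Psca UMI was found in ventral basal-like cells, which allows up to 4.14 CPM, nor in ventral macrophage-like cells, with a limit of 17.3 CPM. Proximal luminal-like cells thus exceeded distal luminal-like cells 71.0-fold (57.7 to 87.7) in the ventral library and 30.5-fold (29.5 to 31.6) in the proximal library. On the log2 scale these ratios were 6.15 and 4.93, and the larger ratio came from the library with the lower Psca level in both classes. Without the cells that had over 5% of UMIs from Sbp and Spink1 the ventral value was 7.05, and the proximal value was 6.05 with doublets removed at the expected rate and 6.54 after 5% free RNA was subtracted.

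Ly6a, the Sca-1 gene, was high in more kinds of cells than Psca. In the proximal library it was at 791 CPM (778 to 804) in proximal luminal-like cells and between 685 and 938 CPM in clusters 1, 4, 5 and 12. Endothelial-like cells (585 CPM, 534 to 641) and fibroblast-like cells (572 CPM, 552 to 592) came next and did not differ from each other beyond counting error, at a ratio of 1.02-fold (0.93 to 1.13). Basal-like cells were lower at 257 CPM (246 to 268). Distal luminal-like cells were lowest of the large epithelial classes at 31.9 CPM (30.1 to 33.9), so that proximal luminal-like cells exceeded them 24.8-fold (23.3 to 26.4) and basal-like cells exceeded them 8.04-fold (7.47 to 8.66).

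By share of thinned cells the order of Ly6a was the same for the main classes. It was found in 66.4% (62.4% to 70.3%) of proximal luminal-like cells, 55.0% of endothelial-like cells, 53.4% of fibroblast-like cells and 28.3% of basal-like cells, against 90.5%, 77.0%, 80.3% and 65.2% unthinned. Macrophage-like cells (5.26%, 1.45% to 12.9%) and distal luminal-like cells (5.53%) served as background, at 11.4% and 33.3% unthinned. Cluster 12 differed from the other unnamed clusters in Psca and not in Ly6a. There 72.7% of thinned cells held Ly6a, as many as in clusters 1, 4 and 5 (70.1% to 70.6%), while 30.8% held Psca, against 82.4% to 97.8% in those 3 clusters.

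Among distal luminal-like clusters of the proximal library, Ly6a was not even. Cluster 11, led by Prr9, Gpx3, Pate14, Gm35533 and Ms4a5, held 105 CPM (94.1 to 118) of Ly6a, and the other distal luminal-like clusters, 3, 6 and 9, held 21.1 to 31.9 CPM. Without the cell with most Ly6a in each cluster (57 of 312 UMIs in cluster 11) these were 87.7 CPM (77.2 to 99.1) and 16.1 to 25.5 CPM. At 2000 UMIs a cell, 8.89% of cells of cluster 11 had a Ly6a UMI (12 of 135, 4.68% to 15.01%) and 3.77% to 5.83% of cells of the others, with overlapping intervals. The 32.8 CPM of Ly6c1 in cluster 11 came almost wholly from 1 cell with 85 of its 97 UMIs, which held proximal luminal markers at 6461 CPM against 588 CPM in the rest of the class. Ventral levels of Ly6a were 127 CPM (108 to 149) in proximal luminal-like cells, 91.0 CPM (70.4 to 116) in basal-like cells and, in distal luminal-like cells, 0.53 CPM (0.34 to 0.79), with no UMI in immune classes or in cluster 8.

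Ly6d, known from stratified epithelia, was clumped in a minority of cells. It was found in 21.9% of thinned cells of cluster 4, 17.2% of basal-like cells, 16.8% of cluster 5 and 16.7% of cluster 12, and in 4.02% of proximal luminal-like cells. The unnamed clusters held 71.4% of the Ly6d UMIs of the proximal library. Its highest level in the proximal library was 712 CPM (687 to 738) in cluster 12, followed by 367 CPM (352 to 383) in cluster 4, 271 CPM (258 to 285) in cluster 5 and 166 CPM (157 to 175) in basal-like cells. Proximal luminal-like cells were at 65.3 CPM (61.6 to 69.2), and distal luminal-like cells, cluster 1 and the non-epithelial classes were all below 20 CPM. The median cell held 0 Ly6d UMIs in each of these groups. The 10% of cells with most Ly6d held 92.4% of the UMIs of cluster 12, 76.9% of cluster 4, 78.4% of cluster 5 and 73.2% of basal-like cells, with at most 357 UMIs in a cell of cluster 12.

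The proximal luminal-like clusters differed from each other in Ly6d. Cluster 2, led by Prol1, 2310057J18Rik, Smr2, Pip and Bglap3, was at 173 CPM, and cluster 0, led by Arl14, Krt23, Tff3, Wincr1 and Cald1, at 12.3 CPM. Psca had the reverse order, with 3575 CPM in cluster 0 and 1566 CPM in cluster 2. The 10% of proximal luminal-like cells with most Ly6d held 97.5% of its UMIs. Which of the 2 classes, proximal luminal-like or basal-like, was higher in Ly6d depended on the processing. Proximal luminal-like cells were lower by the main settings, at a log2 ratio of -1.34 (-1.46 to -1.23), but the ratio was 0.04 with a looser cell filter and 0.72 at a Leiden resolution of 0.5. Ventral Ly6d was at 174 CPM (145 to 207) in basal-like cells, 10.7 CPM in proximal luminal-like cells (1 cell held 9 of the 13 UMIs) and 0.11 CPM in distal luminal-like cells. By share, Ly6d was found in 17.2% of thinned proximal basal-like cells and 34.2% unthinned, while macrophage-like cells had 0 of 76, which allows up to 3.95%, and 2.53% unthinned.

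**Figure D2:**
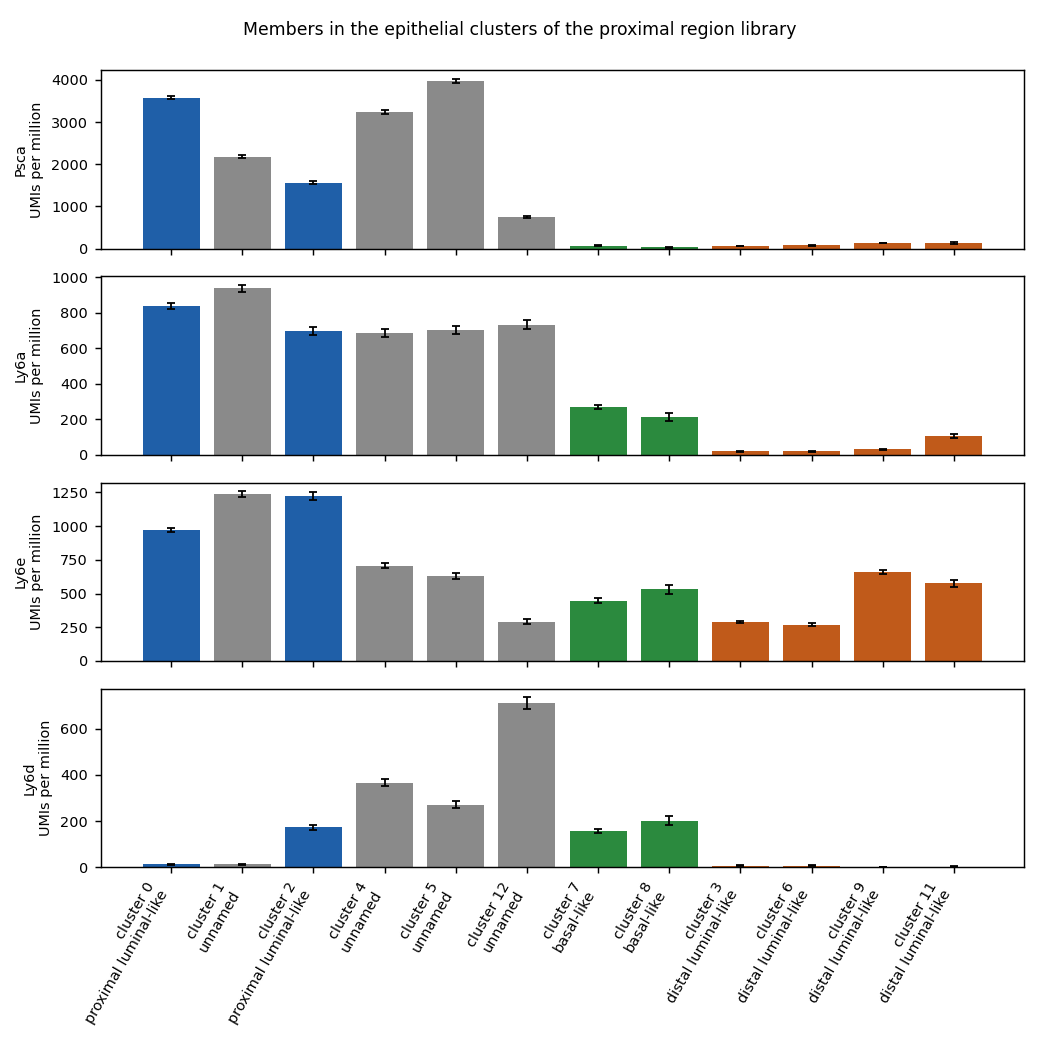
Levels of Psca, Ly6a, Ly6e and Ly6d in CPM in the epithelial and the unnamed clusters of the proximal region library, with exact 95% counting intervals. Blue bars are proximal luminal-like, grey unnamed, green basal-like and orange distal luminal-like. Ly6a stays between 685 and 938 CPM over the blue and grey bars, while Ly6d is at 11.7 CPM in cluster 1 and 712 CPM in cluster 12.

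Ly6e, the broadly expressed member, had the narrowest range. In the proximal library its class levels ran from 179 CPM (153 to 208) in seminal vesicle-like cells and 198 CPM (186 to 210) in fibroblast-like cells to 1239 CPM (1217 to 1261) in cluster 1. Proximal luminal-like cells were at 1055 CPM (1040 to 1070), endothelial-like cells at 882 CPM (819 to 950), basal-like cells at 465 CPM (450 to 480) and distal luminal-like cells at 429 CPM (422 to 436). Endothelial-like cells exceeded fibroblast-like cells 4.46-fold (4.05 to 4.90), and proximal luminal-like cells exceeded distal luminal-like cells 2.46-fold (2.41 to 2.52). Cluster 12 was the lowest of the unnamed clusters at 291 CPM (275 to 308), although it was the highest in Ly6d.

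Ly6e was found in all 12 proximal groups after thinning, from 20.0% of seminal vesicle-like cells to 85.0% of cluster 1, and no class is known to lack it. Distal luminal-like clusters 9 and 11, at 662 and 575 CPM, exceeded clusters 3 and 6, at 289 and 268 CPM. Ventral levels were 1759 CPM (1685 to 1835) in proximal luminal-like cells, 1309.6 CPM (1228 to 1396) in basal-like cells, 547 CPM (477 to 624) in T or NK cell-like cells, 319 CPM (280.2 to 361) in cluster 8, 275 CPM (270.2 to 279.9) in the distal luminal-like class and 248 CPM (180 to 335) in macrophage-like cells. The macrophage-like interval overlapped those of distal luminal-like cells and cluster 8, so these 3 could not be ordered around it.

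Ly6c1 had its highest levels in endothelial-like and fibroblast-like cells. It was at 399 CPM (356 to 445) in 61 endothelial-like cells and 203 CPM (191 to 215) in 523 fibroblast-like cells of the proximal library, a 1.97-fold difference (1.73 to 2.23). The endothelial-like cluster was led by Ccl21a, a gene of lymphatic vessels, with Flt1, Emcn, Cldn5 and Iigp1. Thinned cells with Ly6c1 made up 43.3% (30.6% to 56.8%) of endothelial-like and 25.4% (21.5% to 29.5%) of fibroblast-like cells, against 67.2% and 53.9% unthinned. Macrophage-like cells held it in 0 of 76 thinned cells, which allows up to 3.95%, and in 1.27% unthinned.

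Epithelial levels of Ly6c1 were lower. They were 63.6 CPM (58.7 to 68.7) in cluster 1, 54.4 CPM (47.6 to 61.9) in cluster 12, 36.1 CPM (33.4 to 39.1) in proximal luminal-like cells and 14.7 CPM (12.1 to 17.6) in basal-like cells. Thinned shares in the first 3 were 9.38%, 9.69% and 3.67%, against 40.4%, 42.7% and 32.4% unthinned. Of the proximal library's Ly6c1 UMIs, 26.8% were in named epithelial classes, 30.7% in unnamed clusters, 32.9% in stromal and 9.52% in endothelial cells. Cluster 4 was at 19.9 CPM, but 1 cell held 62 of its 117 Ly6c1 UMIs and the rest were at 9.43 CPM. No endothelial or fibroblast class was found in the ventral library, where Ly6c1 reached 11.03 CPM (4.76 to 21.7) in basal-like and 9.07 CPM (4.53 to 16.2) in proximal luminal-like cells, from 8 and 11 UMIs of which single cells held 4 and 7.

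Fibroblast-like cells of the proximal library fell into 2 clusters that differed in the members. Cluster 14, led by Ctla2a, Col3a1, Gsn, Dpt and Eln, exceeded cluster 10, led by Cxcl14, Wif1, Ifitm1, Bgn and Lgals1, in Ly6a (657 against 465 CPM, 1.41-fold, 1.31 to 1.52) and in Ly6c1 (222 against 178 CPM, 1.25-fold, 1.11 to 1.42). Ly6e had the reverse order, with 266 CPM in cluster 10 and 144 CPM in cluster 14. Psca was at 122 CPM in cluster 10 and 75.2 CPM in cluster 14, and at 94.2 and 43.6 CPM without each cluster's top cell. Ly6d, at 25.9 and 13.03 CPM, rested on 1 cell with 47 of the 63 UMIs of cluster 10, and without each cluster's top cell it did not differ beyond counting error (6.62 and 7.22 CPM). Adventitial fibroblasts are the cells around vessels and ducts, and 9 of 12 listed genes had enough UMIs to be compared between the clusters. Past 2-fold on log2(CPM + 10), 3 were higher in cluster 14 (Scara5, Col14a1 and Sema3c) and 1 lower (Wnt2), where 3.67% of 9124 genes were higher and 2.55% lower, and since the clustering used these genes this is a description. By counting interval alone cluster 14 was higher in Scara5 (40.4 against 2.05 CPM), Col14a1 (35.8 against 2.88 CPM), Sema3c (149 against 45.2 CPM), Cd34 (263 against 129 CPM), Pi16 (118 against 59.6 CPM) and Ackr3 (65.8 against 46.4 CPM). Wnt2 (97.7 against 397 CPM) and Anxa3 (47.6 against 75.2 CPM) were lower in cluster 14. Cd248 (99.0 and 103 CPM) and the low genes Efhd1, Dpp4 and Dact2, each with at most 14 UMIs in either cluster, did not differ beyond counting error.

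Psca was often co-detected with Ly6a and with Ly6e in proximal luminal-like cells. Of 572 thinned proximal luminal-like cells in the proximal library, 465 held Psca, 380 held Ly6a and 334 (58.4%, 54.2% to 62.5%) held both, against 54.0% for the product of the 2 shares. Psca was found in 87.9% (84.2% to 91.0%) of the cells with Ly6a and in 68.2% of those without it. Read the other way, 71.8% (67.5% to 75.9%) of the Psca cells also held Ly6a. The class pools cluster 0, with both genes in 65.3% of cells against a product of 63.3%, and cluster 2, with 47.3% against 40.4%. Cluster 1 had the same order, with Psca in 85.8% of cells with Ly6a and 74.3% of those without. The surplus over the product was not seen in clusters 4, 5 and 12, where Psca was found in 91.4%, 97.7% and 30.9% of cells with Ly6a and in 91.0%, 98.2% and 30.6% of cells without it. Psca and Ly6e were together in 376 proximal luminal-like cells (65.7%), and the product of their shares was also 65.7%.

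Ly6d was co-detected with Psca in some groups and not in others. In proximal luminal-like cells 11 of the 23 Ly6d cells held Psca (47.8%, 26.8% to 69.4%), against 82.7% of the cells without Ly6d, and 2.37% (1.19% to 4.19%) of Psca cells held Ly6d. That last share depends on the processing, at 12.8% with a looser cell filter, 11.1% with doublets removed at the expected rate, 18.1% at a Leiden resolution of 0.5 and 14.1% without thinning. Of those 23 cells, 16 were in cluster 2, where 5 held Psca. In cluster 12 the order was the reverse, with Psca in 21 of 38 Ly6d cells (55.3%, 38.3% to 71.4%) and in 25.9% of the others. In cluster 4 Psca was found in 53 of 58 Ly6d cells (91.4%) and 91.3% of the others, and in cluster 5 in all 31 Ly6d cells and 97.4% of the others. Basal-like cells held Ly6a and Ly6d together in 41 of 676 cells (6.07%), with Ly6d in 21.5% of Ly6a cells and in 15.5% of the rest.

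Ly6c1 was found mostly in cells that also held Ly6a. In fibroblast-like cells 84 of 122 Ly6c1 cells (68.9%, 59.8% to 76.9%) held Ly6a, against 53.4% of all fibroblast-like cells. In endothelial-like cells the figures were 15 of 26 (57.7%, 36.9% to 76.6%) and 55.0%, which did not differ beyond counting error at this depth. Among cells with Ly6c1, Ly6a was found in 20 of 21 of the proximal luminal-like class (95.2%, 76.2% to 99.9%), 29 of 32 of cluster 1 (90.6%, 75.0% to 98.02%) and 18 of 22 of cluster 12 (81.8%, 59.7% to 94.8%), against Ly6a shares of 66.4%, 70.4% and 72.7%. The cluster 12 interval includes the share of all its cells. In basal-like cells it was 8 of 14 (57.1%, 28.9% to 82.3%) against 28.3%, and ventral basal-like cells had 1 of 4. These shares depend on the depth to which cells were thinned. Without thinning 93.6% of fibroblast-like and 92.7% of endothelial-like Ly6c1 cells held Ly6a, and 94.5% of proximal luminal-like Psca cells did. The unthinned Ly6a shares of all cells of these classes were 80.3%, 77.0% and 90.5%.

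The number of members per cell separated the classes further. At least 3 of the 5 were found in 51.9% of proximal luminal-like cells, 55.4% of cluster 1, 51.3% of cluster 4 and 53.8% of cluster 5. That share was 26.7% in endothelial-like cells, 21.1% in cluster 12, 8.11% in fibroblast-like cells, 5.47% in basal-like cells and 0.90% in distal luminal-like cells. Detection of 4 members reached 11.7% in cluster 4 and 10.3% in cluster 5, and was 7.04% in cluster 1, 3.15% in proximal luminal-like cells and 2.20% in cluster 12. No thinned cell of either library held all 5. Of the ventral cells, 24.7% of proximal luminal-like cells and 21.9% of basal-like cells held at least 2, against 0.49% of distal luminal-like cells.

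**Figure D3:**
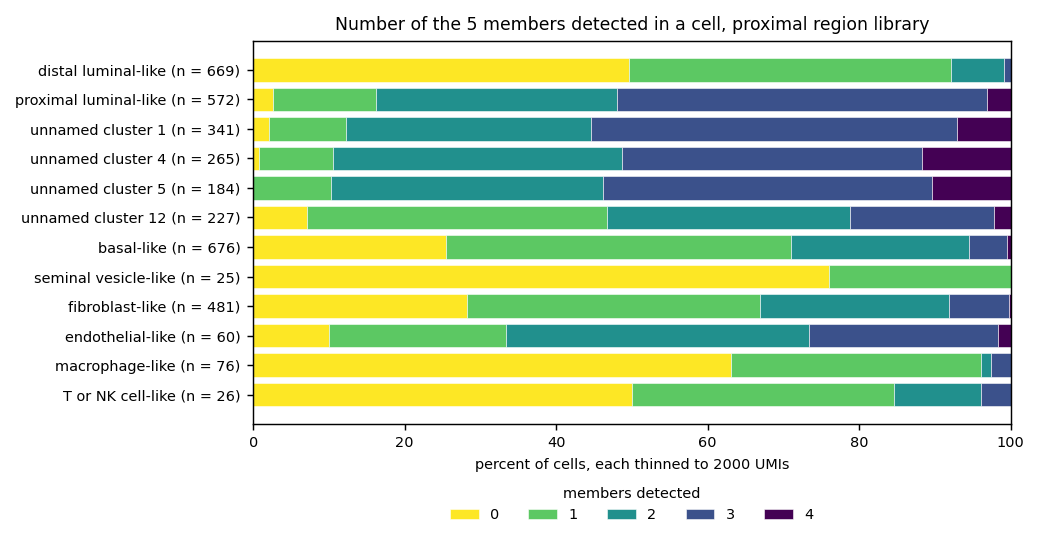
Percent of cells in each class of the proximal region library in which 0, 1, 2, 3 or 4 of the 5 genes were detected after thinning each cell to 2000 UMIs. At least 3 were found in 51.3% to 55.4% of proximal luminal-like cells and clusters 1, 4 and 5, and in 0.90% of distal luminal-like cells.

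Immune levels of the members other than Ly6e rested on few cells in the proximal library. Ly6e had a UMI in 69 of 106 immune cells. The 27 T or NK cell-like cells were at 414 CPM (332 to 509) of Ly6a, but a single cell held 79 of the 89 UMIs, and it also held 45 of 54 Psca and 56 of 122 Ly6e UMIs. That cell had 34801 UMIs against a class median of 7275 and held proximal luminal markers at 6781 CPM, against 177 CPM in the other cells of its class. Without it the class was at 55.5 CPM of Ly6a, 49.9 CPM of Psca and 366 CPM of Ly6e. In macrophage-like cells 1 cell of 46485 UMIs, with proximal luminal markers at 10778 CPM against 361 CPM in the others, held 28 of 61 Ly6a, 43 of 96 Psca, 145 of 369 Ly6e and 9 of 10 Ly6d UMIs. Without it Ly6a was at 35.2 CPM, Psca at 56.5 CPM and Ly6e at 239 CPM.

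In the proximal library Ly6e over all immune cells was 409 CPM (374 to 447), against 610 CPM (604 to 617) over the named epithelial classes, a log2 ratio of -0.58. The ventral library had the other order, with 457 CPM (404 to 516) in immune and 329 CPM (324 to 334) in epithelial classes, a log2 ratio of 0.47 (0.29 to 0.65). Of the 1862 ventral epithelial cells 1636 were distal luminal-like, at 275 CPM. Ventral proximal luminal-like (1759 CPM) and basal-like cells (1309.6 CPM) lay above both immune classes (248 and 547 CPM). The part of class composition in this order was not tested. In the proximal library the sign also depended on naming, since the ratio was 0.11 when each cell was named by its marker z-score, and it was -1.26 without cells that held over 40% of a member's UMIs in their class. Among endothelial-like cells, 1 cell held 116 of 215 Psca UMIs and 9 of 10 Ly6d UMIs, and without it Psca fell from 266 to 126 CPM. Ly6a and Ly6c1 of endothelial-like and fibroblast-like cells did not rest on single cells, as no cell held more than 40 of the 322 endothelial-like or 27 of the 1115 fibroblast-like Ly6c1 UMIs.

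**Figure D4:**
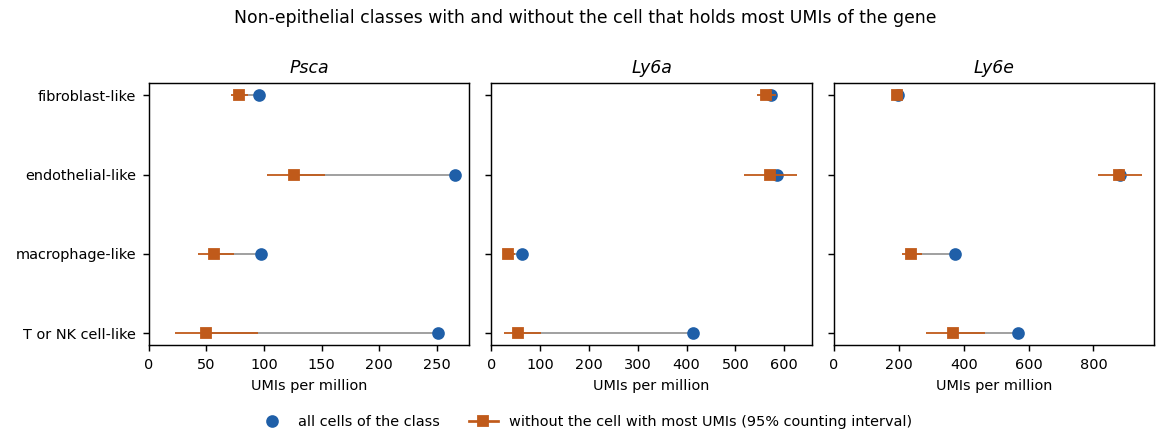
Levels of Psca, Ly6a and Ly6e in CPM in 4 non-epithelial classes of the proximal region library, for all cells (blue circles) and without the cell that holds most UMIs of the gene (orange squares, with exact 95% counting intervals). Ly6a of T or NK cell-like cells drops from 414 to 55.5 CPM, while Ly6a of fibroblast-like and endothelial-like cells hardly moves.

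Markers of proximal luminal cells were also counted outside the luminal cells, beside Psca. All 11 markers of the list had UMIs in distal luminal-like and basal-like cells and 10 of 11 in fibroblast-like, endothelial-like, macrophage-like and T or NK cell-like cells, where their summed level ran from 711 CPM (fibroblast-like) to 2016 CPM (endothelial-like), against 9716 CPM in proximal luminal-like cells. The immune sums rest on the 2 single cells named above, which held 236 of 268 marker UMIs in T or NK cell-like cells (1246 CPM with and 177 CPM without the cell) and 501 of 840 in macrophage-like cells (853 and 361 CPM). Per 100 UMIs of these markers there were 30 Psca UMIs in proximal luminal-like cells. The same ratio was 20.1 in T or NK cell-like cells, 16.0 in distal luminal-like, 13.5 in fibroblast-like, 13.2 in endothelial-like, 11.4 in macrophage-like and 6.26 in basal-like cells. Without the cell with most Psca UMIs in each class the order changed, with 28.1 in T or NK cell-like cells (from 9 Psca UMIs), 15.6 in macrophage-like, 14.4 in distal luminal-like, 12.0 in fibroblast-like, 7.13 in endothelial-like and 5.53 in basal-like cells. With every cell it was 0.90 in seminal vesicle-like cells, where the markers summed to 1519 CPM. Ly6a did not keep a fixed ratio to Psca. Per 100 Psca UMIs there were 27.2 Ly6a UMIs in proximal luminal-like and 33.5 in distal luminal-like cells, but 417 in basal-like and 596 in fibroblast-like cells. In endothelial-like cells there were 220, and 465 without the 1 cell that held 116 of the 215 Psca UMIs. What part RNA from other cells has in the Psca counts of these classes was not tested.

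Most other genes of the family were low or undetected. Of 41 other Ly6/uPAR genes listed, 40 were in the files, 6 had no UMI and 13 reached 10 CPM in a class. Plaur, the urokinase receptor, was at 3275 CPM (3229 to 3322) in cluster 5, 2229 CPM in proximal luminal-like cells, 1765 CPM in cluster 12, 1332 CPM in cluster 4 and 956 CPM in cluster 1. Outside the epithelium it was at 464 CPM in endothelial-like and 436 CPM in macrophage-like cells. Single cells held 99 of the 375 endothelial-like and 103 of the 429 macrophage-like Plaur UMIs. Lypd3 was highest in cluster 12 (124 CPM, 114 to 135), the cluster highest in Ly6d, and Lypd2 in cluster 4 (55.2 CPM, 49.4 to 61.6). Ly6g6e (18.1 CPM) was also highest in cluster 4, Lypd8 in cluster 5 (10.5 CPM, or 6.20 CPM without 1 cell with 25 of its 61 UMIs) and Ly6k (37.2 CPM, 24.5 to 54.2) in ventral basal-like cells, while the 12.4 CPM of Ly6g6d in ventral T or NK cell-like cells rested on 5 UMIs.

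Other family genes also had counts outside the epithelium. Ly6c2, the near-identical partner of Ly6c1, was at 158 CPM (109 to 221) in T or NK cell-like cells, from 34 UMIs of which 1 cell held 21, and Ly6c1 had no UMI there (which allows up to 13.9 CPM). In endothelial-like cells the pair was reversed, with Ly6c1 at 399 CPM and no Ly6c2 UMI (which allows up to 3.71 CPM), and fibroblast-like cells had 1115 Ly6c1 UMIs and 1 of Ly6c2. Gpihbp1, which carries lipoprotein lipase across capillaries, was at 38.4 CPM (26.1 to 54.5) in endothelial-like cells, or 23.9 CPM (14.4 to 37.3) without 1 cell with 12 of its 31 UMIs. Fibroblast-like cells held Cd59a, a complement inhibitor, at 47.4 CPM (41.8 to 53.5), which overlaps its interval in endothelial-like cells (34.7 CPM, 23.0 to 50.1). They also held Lynx1 at 19.6 CPM (16.1 to 23.7), Lypd6 at 12.7 CPM and Cd59b at 12.5 CPM.

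**Figure D5:**
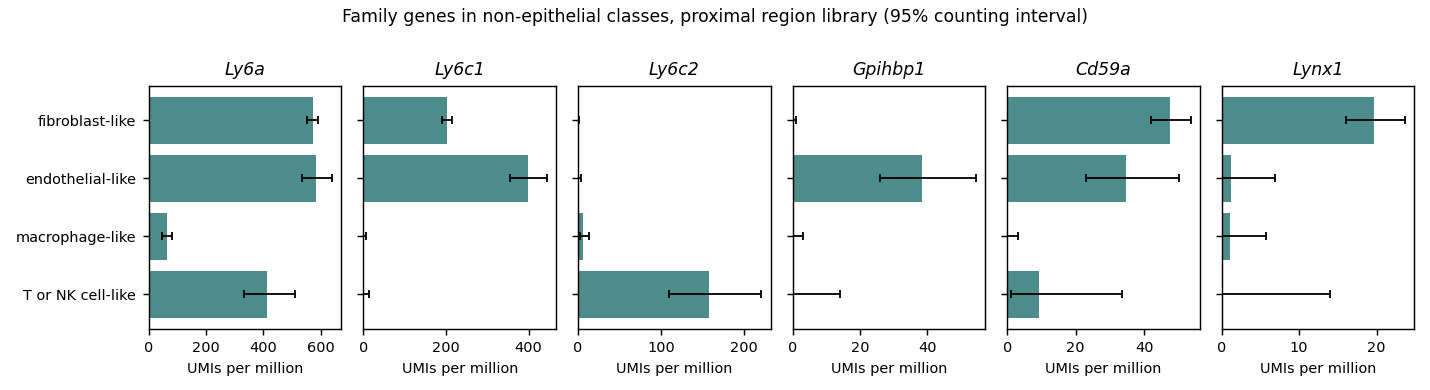
Levels of 6 family genes in CPM in 4 non-epithelial classes of the proximal region library, with exact 95% counting intervals (the limit of 3 counts where there is no UMI) and a separate axis for each gene. Ly6c1 is at 399 CPM in endothelial-like and 203 CPM in fibroblast-like cells and has no UMI in T or NK cell-like cells, where Ly6c2 is at 158 CPM.

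The members and related lists were then set beside all genes with at least 50 UMIs in 2 classes together, counting those past 2-fold on log2(CPM + 10), a scale that understates changes of low genes. Between proximal luminal-like and distal luminal-like cells of the proximal library, all 5 members were higher in the former, where 9.51% of 13691 genes were higher and 4.35% lower. The median log2 difference was 2.39 for the members and 0.05 for all genes. As the members were chosen with earlier results of these data known, this is a description. The 3 members with enough UMIs in the ventral library, Psca, Ly6a and Ly6e, were all higher, where 12.8% of 11089 genes were higher and 0.397% lower, with a median of 3.70 against 0.43. In distal luminal-like cells, distal luminal markers summed to 471243 CPM (ventral) and 239745 CPM (proximal), and their part in that shift of all genes was not tested.

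Basal-like cells, set against proximal luminal-like cells, had 1 of 5 members higher (Ly6d) and 3 lower (Psca, Ly6a and Ly6e) in the proximal library, where 5.84% of 12450 genes were higher and 5.65% lower. The direction of Ly6d turned with a looser cell filter and a lower resolution, as given above. Among ventral cells 1 of 4 was higher (Ly6d) and 1 lower (Psca), against 9.28% and 16.3% of 4431 genes. Endothelial-like cells had 2 of 5 members higher than fibroblast-like cells, Ly6e and Psca, and none lower, against 8.63% higher and 13.4% lower of 9709 genes. Ly6c1 missed the 2-fold limit there, and the Psca value rests largely on 1 cell, as given above.

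Other family genes past the limit were higher in proximal luminal-like cells in both libraries. Against distal luminal-like cells 3 of 12 tested were higher in the proximal library, Plaur (2229 against 72.2 CPM), Lypd2 (17.6 against 0.35 CPM) and Lypd3 (16.4 against 1.71 CPM), and 2 of 6 in the ventral library, Plaur (63.5 against 0.66 CPM) and Ly6k (24.7 against 1.02 CPM). None was lower in either at this setting, but some were in the proximal library with a pseudocount of 1 CPM, as given below. Of all genes, 9.51% were higher and 4.35% lower in the proximal library, and 12.8% and 0.397% in the ventral library. Basal-like cells had 2 of 11 lower than proximal luminal-like cells in the proximal library, Plaur (202 CPM) and Lypd2 (1.12 CPM), 1 of 2 lower in the ventral library, Plaur (11.03 CPM), and none higher. Endothelial-like cells had 1 of 6 higher than fibroblast-like cells, Plaur, and 3 lower, Ly6k (no UMI against 18.0 CPM), Lynx1 (1.24 against 19.6 CPM) and Cd59b (no UMI against 12.5 CPM). Of all genes, 5.65% (proximal) and 16.3% (ventral) were lower in basal-like cells, and 8.63% higher and 13.4% lower in endothelial-like cells. More family genes were lower in proximal basal-like cells with a pseudocount of 1 CPM, as given below.

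Genes that build and attach the GPI anchor were counted in the same comparisons. Summed over the list they were at 897 to 1111 CPM in the distal luminal-like clusters of the proximal library, 649 to 744 CPM in the proximal luminal-like and 483 to 560 CPM in the basal-like ones. In the ventral library the 1 proximal luminal-like cluster was above the distal luminal-like ones, at 1159.9 against 1029 to 1086 CPM. Of 26 tested in proximal luminal-like against distal luminal-like cells of the proximal library, Pigu, a subunit of the transamidase that attaches the anchor, was higher (49.9 against 18.1 CPM), and Dpm3 (54.4 against 151 CPM) and Pgap2 (132 against 394 CPM), of mannose donor synthesis and anchor remodelling, were lower. The list's median was -0.07, and of all genes 9.51% were higher and 4.35% lower. Ventral cells had 2 of 26 higher, Pigt (80.0 against 30.8 CPM) and Pigu (29.7 against 9.54 CPM), with a median of 0.45 beside 0.43 for all genes, and 9 were higher with a pseudocount of 1 CPM. Basal-like cells had 1 of 24 lower in the proximal library, Pigt (16.9 against 46.4 CPM), and 1 of 9 lower in the ventral library, Pgap2 (91.0 against 390.2 CPM), and endothelial-like cells 1 of 14 lower than fibroblast-like cells, Dpm3 (38.4 against 121 CPM). Of all genes, 12.8% were higher in the ventral luminal comparison. The shares lower were 5.65% (proximal) and 16.3% (ventral) in basal-like cells and 13.4% in endothelial-like cells.

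Interferon-stimulated genes, listed because Ly6e and Ly6a are known to respond to interferon, were counted the same way. Proximal luminal-like cells had 6 of 23 higher and none lower than distal luminal-like cells in the proximal library. Of all genes 9.51% were higher and 4.35% lower there. The higher ones included Ifit3 at 24.5 against 1.41 CPM, Ifi27l2a at 44.5 against 4.62 CPM and Irf7 at 132 against 35.1 CPM. In the ventral library 2 of 17 were higher, Irf1 (44.5 against 11.2 CPM) and Ifitm3 (150.1 against 40.3 CPM), where 12.8% of all genes were. Both counts rose with a pseudocount of 1 CPM, as given below. Basal-like cells, against proximal luminal-like cells of the proximal library, had 2 of 23 higher, Ifitm3 (1237 against 332 CPM) and Irf1 (67.0 against 19.0 CPM), and 10 lower, among them Ifi27l2a (2.11 CPM), Irf7 (30.3 CPM) and Bst2 (17.8 against 89.3 CPM). The same comparison in ventral cells had 2 of 4 higher, Ifitm3 (1873 CPM) and Irf1 (109 CPM), and 1 lower, Bst2 (8.27 against 48.7 CPM). Endothelial-like cells had 12 of 20 higher than fibroblast-like cells, led by Gbp2 (433 against 37.2 CPM), Gbp3 (91.6 against 8.36 CPM) and Rsad2 (121 against 14.9 CPM), and 1 lower, Ifi27l2a (116 against 249 CPM). Beside these, 5.84% of all genes were higher and 5.65% lower in proximal basal-like cells, and 9.28% and 16.3% in ventral ones. Endothelial-like cells had 8.63% of all genes higher and 13.4% lower.

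The medians of the interferon list were 0.53 in proximal luminal-like over distal luminal-like cells of the proximal library, -0.92 in basal-like over proximal luminal-like cells and 1.23 in endothelial-like over fibroblast-like cells, beside 0.05, -0.01 and -0.08 for all genes. Ly6e was at 1055 against 429 CPM, 465 against 1055 CPM and 882 against 198 CPM in these comparisons, which share classes. Ly6a was at 791 against 31.9 CPM, 257 against 791 CPM and 585 against 572 CPM in them, with overlapping intervals in the last. For the ventral library the list's median was 0.39 in proximal luminal-like over distal luminal-like cells, beside 0.43 for all genes, with Ly6e at 1759 against 275 CPM and Ly6a at 127 against 0.53 CPM. It was 0.83 in basal-like over proximal luminal-like cells, from 4 genes, beside -0.13 for all genes, with Ly6e at 1309.6 against 1759 CPM, so there the signs of the list and of Ly6e differed.

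Adventitial fibroblast genes were also counted in epithelial cells. Of 6 tested in proximal luminal-like against distal luminal-like cells of the proximal library, Anxa3 (1077 against 40.7 CPM) and Sema3c (205 against 23.4 CPM) were higher, as they were among 3 tested in the ventral library (252 against 1.48 CPM and 29.7 against 2.01 CPM). Basal-like cells had Ackr3 higher (93.1 against 9.22 CPM) and Anxa3, Sema3c and Dpp4 lower of 6 in the proximal library, and Anxa3 lower, the only gene tested, in the ventral library (105 against 252 CPM). Endothelial-like cells had 5 of 9 lower than fibroblast-like cells, led by Wnt2 (no UMI against 229.8 CPM), Cd248 (1.24 against 101 CPM) and Pi16 (12.4 against 92.1 CPM), and 1 higher, Anxa3 (306 against 59.8 CPM). Of all genes, 9.51% (proximal) and 12.8% (ventral) were higher in proximal luminal-like cells. In basal-like cells 5.84% were higher and 5.65% lower (proximal) and 16.3% lower (ventral). In endothelial-like cells 8.63% were higher and 13.4% lower.

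Genes of capillary and arterial endothelium gave few tested members. In endothelial-like over fibroblast-like cells 2 of 3 were higher, Sox17 (96.5 CPM against no UMI) and Rgcc (517 against 235 CPM). Rgcc was also higher in proximal luminal-like than distal luminal-like cells, as 1 of 3 tested in the proximal library (94.4 against 8.41 CPM) and the 1 tested in the ventral library (14.0 against 0.99 CPM). Basal-like against proximal luminal-like cells had none of 2 past the limit in the proximal library, and no gene of this list had enough UMIs in the ventral library. Of all genes, 8.63% were higher in the endothelial-like comparison, and 9.51% (proximal) and 12.8% (ventral) in the luminal ones. In the proximal basal-like comparison 5.84% were higher and 5.65% lower.

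Genes whose profile was most like each member were ranked by Pearson's r of log2(CPM + 10) over 18 groups of cells, the classes and unnamed clusters of both libraries with at least 20 cells, among 6232 genes that reached 50 CPM. The groups of a library share its depth, kit and free RNA, so r is a description without a test. For Psca they included Gprc5a (0.972), Gsdmc3 (0.952) and Lmo7 (0.942). For Ly6d they were Krt15 (0.942), a basal keratin and marker, Sfn (0.919), Mdfi (0.905) and Gsto1 (0.896), all highest in cluster 12. For Ly6a they were Sertad2 (0.958), Hnrnph1 (0.951), Crim1 (0.945) and Thoc6 (0.944).

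For Ly6c1 the most alike genes included Rhoj (0.919), Cped1 (0.906) and Jcad (0.899), each highest in endothelial-like or fibroblast-like cells. For Ly6e, r was lower, with Vps72 (0.828), Rab27a (0.822), Cracr2b (0.820) and Prkab1 (0.7999). Between members, r over the same 18 groups was highest for Ly6a and Psca (0.861), followed by Ly6a and Ly6c1 (0.692), Ly6a and Ly6d (0.656) and Ly6d and Psca (0.562), and lowest for Ly6c1 and Ly6e (0.203).

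Between the libraries, 4 of the 5 members were higher by at least 2-fold, on the log2(CPM + 10) scale, in proximal luminal-like cells of the proximal region library and none was lower, where 10.6% of 11230 genes were higher and 5.62% lower. In basal-like cells Ly6a and Psca were higher and Ly6e was lower, beside 17.3% and 7.71% of 9567 genes. In distal luminal-like cells Ly6a and Psca were higher, beside 8.38% of 13270 genes, and no member was lower, beside 0.384%. In proximal luminal-like cells Psca was at 2911 CPM proximal and 221 CPM ventral, a 13.2-fold difference (11.7 to 14.9), and Ly6a was 6.22-fold higher (5.31 to 7.34). The ventral cells of that name also held distal luminal markers at 159614 CPM, against 1931 CPM in the proximal ones, and their own markers at 5662 against 9716 CPM, and the part of this in the differences was not tested. Ly6d was 6.09-fold higher (3.55 to 11.5), or 19.5-fold (7.61 to 71.8) without the ventral cell that held 9 of 13 UMIs. Ly6e had the opposite order, with 1055 CPM proximal and 1759 CPM ventral in proximal luminal-like cells, and 465 and 1309.6 CPM in basal-like cells. In distal luminal-like cells Ly6a was 60.3-fold higher (40.3 to 94.5), Psca 30.6-fold (25.9 to 36.5) and Ly6e 1.56-fold (1.52 to 1.60) in the proximal library. In basal-like cells Ly6a was 2.82-fold higher (2.21 to 3.66) in the proximal library, and Psca was at 61.5 CPM there with no ventral UMI (which allows up to 4.14 CPM). By share of thinned proximal cells, Ly6a (5.53%) and Psca (8.52%) of distal luminal-like cells lay inside the macrophage-like background intervals. Psca of basal-like cells (6.36%) did so too. What part free RNA or the different secretory clusters of the libraries had in these differences was not tested. Ly6d of basal-like cells did not differ beyond counting error, at 166 and 174 CPM (ratio 0.95, 0.79 to 1.15), nor did Ly6c1, at 14.7 and 11.03 CPM (ratio 1.33, 0.65 to 3.15). Region, kit version and library cannot be told apart in these values.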

How the data were processed

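Cells of the ventral lobes (kit version 2) and of the proximal and periurethral region (version 3) gave 1 library each, aimed at 5000 cells. The deposited files hold raw counts of UMIs, from Cell Ranger 7.0.0 per the file headers and on mm10 per the submitters' processing notes. The annotation is not given in the sources used here. Members, gene lists and rules were chosen with earlier results of these data known.

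Kept were barcodes with at least 500 genes and at most 10% mitochondrial UMIs, which removed 226 ventral and 635 proximal ones, and Scrublet removed 7 and 4 more. Cells of each library were normalized to 10000 UMIs, and 2000 variable genes, with no Ly6/uPAR gene among them, gave 30 principal components and Leiden clusters (resolution 1, 15 neighbours, scanpy 1.11.5, igraph 0.11.9). A cluster took the best of 22 marker classes with at least 3 markers in 25% of its cells and at a higher mean than in the other clusters. It stayed unnamed where no class had them or where markers of another class outnumbered its own among its 10 leading genes. Low UMIs with no own marker among the leading genes also left a cluster unnamed. Intervals are exact at 95% (Poisson for CPM, Clopper-Pearson for shares, conditional for ratios, scipy 1.17.1), and 3 counts is the limit that a count of 0 allows. Named were the members, family genes at 10 CPM or more in a class of at least 20 cells, the 4 genes most like each member (some are not reported here), up to 3 genes per list, comparison and direction, and leading genes of clusters. Single cells that held most of a gene's UMIs were picked out after their values were seen. Coding sequences were aligned with Biopython 1.88. The ratio of proximal luminal-like to distal luminal-like cells (proximal library) was tested on simulated data, and thinned shares on 1 simulated pair of genes. Other comparisons were not. Alternatives, 6 of them added after seeing the data, covered cell filter, doublets, resolution, naming, thinning, UMI threshold, scaling, free RNA, pseudocount and UMI minimum.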

Additional observations from a re-analysis of the deposited data

Results flagged for a closer look

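Ly6e differed in opposite directions between basal-like and T or NK cell-like cells of the 2 libraries. In the ventral library basal-like cells were higher, at 1309.6 against 547 CPM, a log2 ratio of 1.26 (1.05 to 1.48) from 950 and 220 UMIs. In the proximal library they were lower, at 465 against 567 CPM, a log2 ratio of -0.29 (-0.55 to -0.01) from 3740 and 122 UMIs. The difference between the libraries was not tested. A single proximal T or NK cell-like cell held 56 of the 122 UMIs, and without it the class was at 366 CPM, below basal-like cells, so the opposite direction rests on that cell. In the ventral library Sbp and Spink1 made up more than 5% of the UMIs in 16 of 27 T or NK cell-like cells and in 4 of 141 basal-like cells, and their part in the ventral ratio was not tested.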

How the results depend on the processing

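Values are given as the main one and then the alternative, log2 ratios first, and the cause of each change was not tested unless stated. No paired analysis was possible because each group has 1 library. For Ly6d, proximal luminal-like over basal-like, -1.34 became 0.04 with at least 200 genes and at most 20% mitochondrial UMIs, 0.72 at resolution 0.5, -0.44 at resolution 2, -0.22 with doublets removed at the expected rate, -0.94 with naming by z-score, -0.47 as the mean of the cells' CPM and -1.47 when unnamed clusters took their best class. For Ly6e, immune over epithelial, -0.58 became 0.11 (z-score), -0.41 and -0.71 (resolutions 0.5 and 2), -1.44 (doublets), -0.92 (mean CPM), -0.72 (unnamed clusters) and -1.26 (cells with over 40% of a member's UMIs left out). For Psca, proximal luminal-like over distal luminal-like, the proximal 4.93 became 5.00 (looser filter), 6.05 (doublets), 4.67 (resolution 0.5), 5.00 (z-score), 5.21 (mean CPM) and 6.54 (5% free RNA subtracted), and the ventral 6.15 became 5.77 (looser filter), 5.65 (z-score) and 7.05 (cells rich in Sbp and Spink1 left out). Ly6a, endothelial-like over proximal luminal-like, went from -0.43 to -0.27 (resolution 0.5), and Ly6c1, endothelial-like over fibroblast-like, from 0.98 to 1.27 (mean CPM).

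Co-detection rose with depth, as more UMIs per cell were read. The share of Psca cells with Ly6a, 71.8%, was 49.8% at 1000 UMIs, 88.9% at 5000, 94.5% without thinning and 92.4% with at least 2 UMIs of each. For Ly6c1 cells with Ly6a, fibroblast-like cells went from 68.9% to 50%, 90.9%, 93.6% and 92.6% under the same settings, and endothelial-like cells from 57.7% to 93.5% at 5000, 92.7% without thinning and 79.5% with at least 2 UMIs. Psca cells with Ly6d, 2.37%, were 6.38% at 5000, 14.1% without thinning, 5.49% with at least 2 UMIs, 12.8% (looser filter), 11.1% (doublets), 18.1% and 7.41% (resolutions 0.5 and 2), 7.72% (z-score) and 8.22% (unnamed clusters).

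List counts moved mainly with a pseudocount of 1 CPM. In proximal luminal-like over distal luminal-like cells it gave 13 interferon genes higher and 1 lower in the proximal and 9 and 1 in the ventral library, 8 family genes higher and 2 lower, 4 GPI genes lower and 1 adventitial gene lower in the proximal library, and 9 GPI genes higher in the ventral library. In basal-like over proximal luminal-like cells of the proximal library it gave 9 family and 4 GPI genes lower and 1 endothelial list gene higher, and in endothelial-like over fibroblast-like cells 3 GPI genes lower. With at least 20 UMIs, endothelial-like over fibroblast-like cells had 5 endothelial list, 2 family and 2 adventitial genes higher, and ventral basal-like over proximal luminal-like cells had 2 GPI genes lower and 1 adventitial gene higher and 2 lower. The shares of all genes past the limit at these alternative settings are not given here. Of 60 to 65 levels of members in classes that each setting gave, between 6 (cells rich in Sbp and Spink1 left out) and 31 (z-score) moved beyond their counting interval, depending on the setting. Classes of 26 to 30 cells and members with under 20 UMIs are limited by counting error. A second draw of the thinning kept the 4 shares in the paragraph on co-detection within their intervals and was not run for the other shares. The settings on cells left out, unnamed clusters and the second draw were chosen after seeing the data.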
